A study of Mus musculus with 127 samples.

Results

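The genes described here are 29 genes of cholesterol synthesis, its regulation and cholesterol transport, out of 53465 genes in a table of read counts from single cells, 113 neurons and 14 astrocytes. They were taken by name, matched to mouse gene identifiers, and all 29 were found. By role they comprise 7 enzymes of the mevalonate arm, 11 enzymes of the squalene and sterol arm, 5 regulators, and 6 genes of transport, turnover and uptake. The cells came from cultures of newborn (P0-P1) wild type C57BL/6 mice and were drawn into a patch pipette at day 15 in vitro, after electrical recording, a procedure called Patch-seq. The neurons are labelled striatal and GABAergic, and all but 9 carried a lentivirus with human HTT exon 1 fused to GFP, holding 25 glutamines (25Q) or an expanded tract of 97 (97Q).

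The neurons comprised 29 of 25Q with vehicle (DMSO), 26 of 97Q with vehicle, 23 of 25Q with RGFP109 and 26 of 97Q with RGFP109. RGFP109, which blocks the histone deacetylases HDAC1 and HDAC3, was given at 100 nM. Another 9 neurons carried an empty vector and had vehicle, and 14 cells were cortical astrocytes, from the layer on which all the neurons grew. The promoter of the lentiviral construct, the animals and the cultures are not given in the labels, and the human transgene is not in the table. Each group with a transgene was spread over batches 1, 2 and 3, as the labels number them, with 3 to 15 cells in each combination, while the empty vector neurons and the astrocytes were all in batch 3. Counts were summed over all cells that shared a group and a batch, so that the batch was the replicate (n = 3). Astrocytes and empty vector neurons had 1 sum each and no test between cell types was possible.

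Total counts ran from 999700 to 9263305 per cell, and levels are given as CPM, a gene's count scaled to the library total. The labels were checked against marker genes. Of 20 astrocyte markers, 19 had a count in the astrocytes, with Gjb6 at 0, and their summed level was 5320 to 22188 CPM per astrocyte against 4.65 to 3812 CPM per neuron. The 14 pan-neuronal markers summed to 1133 to 18323 CPM per neuron and 277 to 2722 CPM per astrocyte, and 5 GABAergic markers to 45.8 to 17436 CPM per neuron and 0.131 to 99.95 CPM per astrocyte. Astrocyte markers were over 1168 CPM in 21 of the 113 neurons. Astrocytes also held 5 of 10 markers of endothelial and mural cells, at 12.4 to 20643 CPM per cell, against 0 to 6557 CPM per neuron. Kdr, Tek, Pdgfrb, Col1a2 and Acta2 had a count, and Cldn5, Pecam1, Flt1, Rgs5 and Col1a1 were at 0. Of 10 oligodendrocyte markers, 5 had a count in astrocytes, at 167 to 1603 CPM per cell against 0 to 1201 CPM per neuron. Mog, Mag, Sox10, Mobp and Cldn11 were at 0 in astrocytes.

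Cells make cholesterol from acetyl-CoA by way of mevalonate, isoprenoids, squalene and a series of sterols. The transcription factor SREBP2, encoded by Srebf2, turns on the enzymes of this route when membrane sterol is low: the escort SCAP carries it out of the endoplasmic reticulum, and INSIG proteins hold SCAP back when sterol is plentiful. Cholesterol hardly crosses the blood-brain barrier, astrocytes are known to pass cholesterol to neurons on lipoprotein particles, and neurons dispose of it through the hydroxylase CYP46A1.

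Of the 29 genes, 24 had an entry in the RefSeq promoter table (GRCm38.p6), with 32 start sites. The 5 without an entry were Fdps, Fdft1, Sqle, Stard4 and Npc1. The 250 bases before a start site are shown for 4 genes whose values are described later. They include a mevalonate enzyme of high level. Another is a mevalonate enzyme whose difference between the huntingtin constructs did not pass a test adjusted over all genes. The others are the transporter and the hydroxylase that differed most between the cell types. Capitals mark CCAAT, the core bound by NF-Y, on either strand (ATTGG on the other), and TCACNCCAC, a form of the sterol regulatory element.
Hmgcs1, chr13:119690101-119690350, plus strand: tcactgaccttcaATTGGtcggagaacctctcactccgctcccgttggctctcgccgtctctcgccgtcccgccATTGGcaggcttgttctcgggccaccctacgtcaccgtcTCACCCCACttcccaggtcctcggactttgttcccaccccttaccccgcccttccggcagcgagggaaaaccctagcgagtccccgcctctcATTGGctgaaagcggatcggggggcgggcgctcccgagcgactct
Mvk, chr5:114444019-114444268, plus strand: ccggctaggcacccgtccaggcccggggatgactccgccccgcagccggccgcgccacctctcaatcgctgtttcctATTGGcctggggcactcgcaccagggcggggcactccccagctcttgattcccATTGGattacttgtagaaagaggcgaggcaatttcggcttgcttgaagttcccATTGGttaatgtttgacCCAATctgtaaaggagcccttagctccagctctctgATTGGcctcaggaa
Abca1, chr4:53159896-53160145, minus strand: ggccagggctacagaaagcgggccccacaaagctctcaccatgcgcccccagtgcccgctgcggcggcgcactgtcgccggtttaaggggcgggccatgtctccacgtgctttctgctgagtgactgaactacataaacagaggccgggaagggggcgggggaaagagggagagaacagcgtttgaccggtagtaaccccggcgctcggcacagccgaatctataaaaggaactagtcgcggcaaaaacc
Cyp46a1, chr12:108334066-108334315, plus strand: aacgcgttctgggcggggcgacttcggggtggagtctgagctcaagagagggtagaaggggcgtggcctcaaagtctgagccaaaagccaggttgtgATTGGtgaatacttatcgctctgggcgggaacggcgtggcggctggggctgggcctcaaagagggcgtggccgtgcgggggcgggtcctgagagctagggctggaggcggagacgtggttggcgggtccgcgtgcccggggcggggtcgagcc
The sterol element form occurred in 1 of the 24 genes, Hmgcs1, at 137 to 129 bases before the start site, and in 1.05% of all 32851 promoters of that length. CCAAT on either strand was in 21 of the 32 promoters of these genes (20 of 24 genes), against 33.9% of all promoters. The GC box GGGCGG on either strand was in 26 of the 32, against 32.7% of all, and the palindromic E-box CACGTG in 6 of the 32, against 6.02%. Mvk had 5 CCAAT matches, Hmgcs1 3, Cyp46a1 1 and Abca1 none, while Abca1 had the E-box at 147 to 142 bases before its start. These matches describe letters in the window and no binding was measured.

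Levels of the 29 genes spanned a wide range in neurons. Per kilobase of exon, the median over the 13 sums of neurons was highest for Hmgcs1, the synthase that condenses acetoacetyl-CoA and acetyl-CoA, at 130.9 CPM per kb (30.8 to 304). Msmo1, a methylsterol monooxygenase, followed at 109 (37.1 to 429), and Fdft1, squalene synthase, at 91.2 (22.4 to 244). The next in order were the sterol desaturase Sc5d at 79.6, phosphomevalonate kinase Pmvk at 62.5, the lanosterol demethylase Cyp51 at 60.0 and squalene epoxidase Sqle at 59.3 CPM per kb. Neighbours in this order overlapped over their sums. The lowest were Abca1, which exports cholesterol to apolipoproteins, at 1.26 CPM per kb (0.0104 to 5.81) and Srebf1, which encodes SREBP1 and is best known for fatty acid genes, at 1.52 (0.297 to 4.69). In astrocytes Hmgcs1 and Msmo1 again stood first, at 413 and 247 CPM per kb, and Cyp46a1 stood last of the 29 at 0.219. In the neuron sums of batch 3, the batch of the astrocytes, Cyp46a1 was the 19th at a median of 5.91 CPM per kb, and over all 13 sums it was the 11th at 25.5.

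The comparison of astrocytes with neurons asks where each step of the route is expressed. It was made within batch 3, between the sum of the 14 astrocytes and the 5 sums of neurons (64 cells), which shared the batch. A gene counted as higher or lower if it differed by at least 2-fold from the median of the 5 neuron sums and lay outside their range. By this rule, 15 of the 29 genes were higher in astrocytes, where 22.8% of the 10856 genes with at least 10 CPM in either cell type were, and 2 were lower, where 28.7% of those genes were. The median log2 ratio of the 29 was 1.03, against -0.25 over all these genes. Higher were 4 of the 7 mevalonate enzymes, 6 of the 11 squalene and sterol enzymes, 2 of the 5 regulators and 3 of the 6 transport genes, and the lower ones were 1 regulator and 1 turnover gene. When scaled by TMM or by DESeq2 size factors, the median of all genes moved to 0.13 and 0.19 and the split to 3120 higher and 2474 lower, or 3161 and 2341, against 2470 and 3115; of the 29 genes, 19 were then higher and 1 lower.

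**Figure D1:**
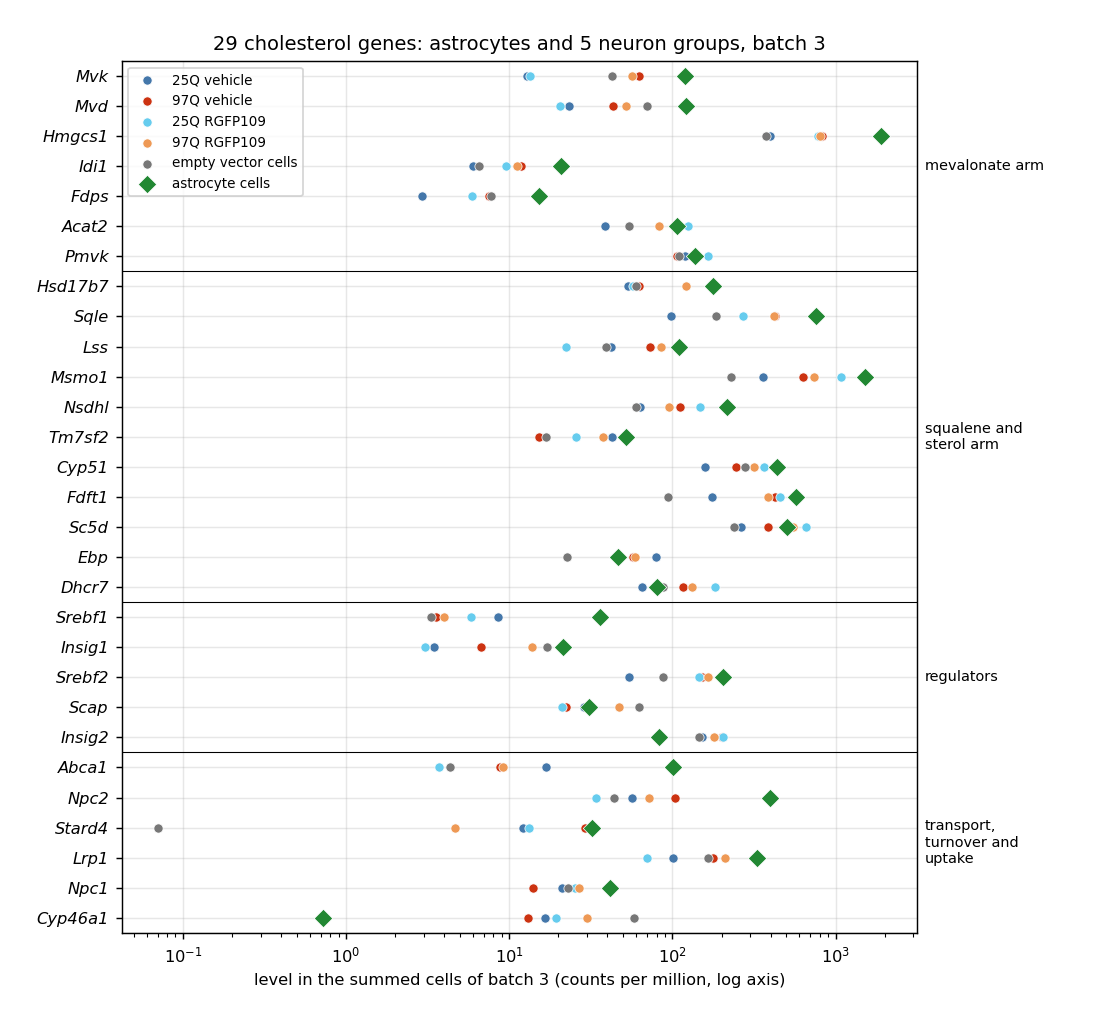
Level of each of the 29 genes in batch 3 (CPM, log axis). Green diamonds are the sum of 14 astrocytes and circles the 5 sums of neurons; within a role, genes are ordered by the ratio of astrocytes to neurons, and Cyp46a1, at the bottom, is the gene with the astrocytes farthest below the neurons.

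Among the transport genes, Abca1 and Npc2 had the largest ratios above 1. Abca1 (ENSMUSG00000015243, GRCm38 chromosome 4, 53030787 to 53159895, minus strand) stood at 101 CPM in astrocytes. In the neuron sums of batch 3 it was 16.8 CPM (25Q vehicle), 8.81 (97Q vehicle), 3.72 (25Q RGFP109), 9.22 (97Q RGFP109) and 4.33 (empty vector). The astrocyte sum was thus above all 5, by 11.4 times their median. Npc2 (ENSMUSG00000021242, chromosome 12, 84754562 to 84773152, minus strand), which hands cholesterol to NPC1 inside the lysosome, stood at 396 CPM in astrocytes. Its neuron sums were 56.9 CPM (25Q vehicle), 103.6 (97Q vehicle), 33.8 (25Q RGFP109), 72.4 (97Q RGFP109) and 44.05 (empty vector), a ratio of 6.96 to their median. Npc1, the membrane partner of Npc2, was outside the range of the neurons but under 2-fold, with 41.2 CPM against 13.9 to 26.8. Under TMM scaling its ratio was 2.29 and it met the rule, while by the median over single cells it was 0.618. The uptake receptor Lrp1 had 329 CPM against 70.4 to 209.7, a ratio of 2.00 that fell just short of the rule before rounding, and met it in 5 of 7 alternatives. Stard4, which moves sterol through the cytosol, had 32.1 CPM against 0.0701 to 29.1, so the astrocyte sum was only slightly above the highest neuron sum.

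Cyp46a1 (ENSMUSG00000021259, chromosome 12, 108334381 to 108362234, plus strand), the hydroxylase that turns cholesterol into a form able to leave the brain, went the other way. It stood at 0.721 CPM in astrocytes (71 counts, exact Poisson 95% interval 0.563 to 0.91 CPM, counting error only). In the neurons of batch 3 it was 16.5 CPM (25Q vehicle), 13.1 (97Q vehicle), 19.4 (25Q RGFP109), 29.8 (97Q RGFP109) and 58.3 (empty vector). All 5 neuron sums were far above the astrocytes, and their median was 27.0 times higher. Of the CPM summed over the 14 astrocytes, each cell scaled to its own total, 82.1% came from 1 cell. In neurons Cyp46a1 also differed between batches: in batch 1 the 4 transgene groups had 103 to 232 CPM, in batch 2 they had 36.4 to 146.8 CPM and in batch 3 only 13.1 to 29.8 CPM. The ratio therefore holds for batch 3, the batch with the lowest neuron levels.

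Among the regulators, Srebf1 (ENSMUSG00000020538, chromosome 11, 60199089 to 60222581, minus strand) stood at 35.96 CPM in astrocytes. Its neuron sums were 8.58 CPM (25Q vehicle), 3.57 (97Q vehicle), 5.86 (25Q RGFP109), 3.99 (97Q RGFP109) and 3.32 (empty vector). The ratio to the neuron median was 9.02. Srebf2 (ENSMUSG00000022463, chromosome 15, 82147181 to 82205379, plus strand), the main factor for this route, had 203 CPM in astrocytes against 54.4 to 165 in the neuron sums, which was 1.39 times their median and under 2-fold. It met the rule against empty vector neurons alone, at 2.30 times, and by the median over single cells, at 3.40 times. The retention factors split: Insig1 (ENSMUSG00000045294, chromosome 5, 28071363 to 28078662, plus strand) was higher in astrocytes, and Insig2 (ENSMUSG00000003721, chromosome 1, 121304353 to 121332589, minus strand) was lower. Insig1 had 21.4 CPM in astrocytes, and in neurons 3.46 (25Q vehicle), 6.74 (97Q vehicle), 3.06 (25Q RGFP109), 13.9 (97Q RGFP109) and 17.2 (empty vector), a ratio of 3.17. Insig2 had 82.8 CPM in astrocytes, and in neurons 151 (25Q vehicle), 200.3 (97Q vehicle), 204 (25Q RGFP109), 179 (97Q RGFP109) and 147 (empty vector), 2.17 times higher at the median. Both calls lapsed against the empty vector neurons alone, where Insig1 had a ratio of 1.25, and Insig2 also lost its call under TMM and DESeq2 scaling. Scap, the escort, had 30.9 CPM in astrocytes and 21.0 to 62.1 CPM in neurons, and was lower, at 0.497 times, against the empty vector neurons alone.

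Among the enzymes, the ketosterol reductase Hsd17b7 (ENSMUSG00000026675, chromosome 1, 169949535 to 169969241, minus strand) had the largest ratio. It stood at 177 CPM in astrocytes and at 53.4 (25Q vehicle), 62.4 (97Q vehicle), 57.6 (25Q RGFP109), 121 (97Q RGFP109) and 59.9 (empty vector), a ratio of 2.95. Hmgcs1 (ENSMUSG00000093930, chromosome 13, 119690379 to 119708260, plus strand) had 1898 CPM in astrocytes, and in neurons 397 (25Q vehicle), 825 (97Q vehicle), 781 (25Q RGFP109), 803 (97Q RGFP109) and 374 (empty vector). Sqle (ENSMUSG00000022351, chromosome 15, 59315077 to 59331192, plus strand), which commits squalene to sterols, had 754 CPM in astrocytes, and in neurons 97.5 (25Q vehicle), 423 (97Q vehicle), 272 (25Q RGFP109), 420 (97Q RGFP109) and 184 (empty vector). For both the astrocyte sum lay above all 5 neuron sums, by ratios of 2.43 and 2.77. The other 7 higher enzymes had ratios of 2.02 to 2.81: the mevalonate enzymes Mvk, Mvd and Idi1, lanosterol synthase Lss, Msmo1, the sterol dehydrogenase Nsdhl and the sterol reductase Tm7sf2. The enzymes that met no rule were Acat2, Pmvk, Fdps, Fdft1, Cyp51, Ebp, Sc5d and Dhcr7, with ratios of 0.695 to 2.04. Some of them met it under an alternative: Fdft1 at 6.07, Sc5d at 2.09 and Ebp at 2.06 times the empty vector neurons, Cyp51 at 2.02 under TMM scaling, and Fdps in 4 of 7 alternatives, by up to 3.51 times. The 2 with a ratio under 1 were Dhcr7, the reductase of the last step of its branch, at 0.695 (0.676 to 1.13 over 7 alternatives) and the sterol isomerase Ebp at 0.808 (0.737 to 2.06), so neither direction held under all of them.

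Some of these values share reads with other genes. Fdps, Idi1, Fdft1 and Acat2 have near-identical transcripts elsewhere, 5 processed pseudogenes for Fdps, 3 for Idi1, 1 for Fdft1 (Gm6781), and the neighbour gene Acat3 for Acat2. Those copies held 56.4%, 18.3%, 8.28% and 38.1% of the joint counts, so the 4 levels are uncertain. With the copies added, Fdps had 50.8 CPM in astrocytes against 8.99 to 29.2 in neurons and met the rule at a ratio of 2.78, while the other 3 kept their side of the rule. Other genes on the same strand overlap the exons of Fdps (26.7% of exon length) and Tm7sf2 (12.1%), and strand cannot tell reads of such pairs apart. Genes on the opposite strand overlap those of Fdft1 (18.3%), Scap (13.2%) and Hmgcs1 (12.1%). Whether the counting used strand is not stated, so reads of the opposite pairs cannot be told apart either.

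Single cells showed how widely these levels spread within a group. At least 10 CPM of Abca1 were found in 10 of 14 astrocytes (71.4%; its 95% interval, exact by Clopper-Pearson, is 41.9 to 91.6%). The cells of a type share a batch, so this interval and those that follow describe the count of these cells only and not the spread between cultures. Abca1 was also at 10 CPM or more in 14 of 64 neurons of batch 3 (21.9%, 12.5 to 33.97%). Its medians were 72.01 CPM in the astrocytes and 0.289 CPM in these neurons. The counts were the same after each cell had been thinned to 900000 counts. The highest neuron of batch 3 had 96.7 CPM, above the astrocyte median, so the 2 cell types overlapped. Npc2 was at 10 CPM or more in all 14 astrocytes (76.8 to 100%), whose lowest cell had 112 CPM, and in 50 of 64 neurons of batch 3 (78.1%, 66.03 to 87.5%). Cyp46a1 reached 10 CPM in 0 of 14 astrocytes, for which the same interval reaches 23.2%, and in 35 of 64 neurons of batch 3 (54.7%, 41.7 to 67.2%). Its highest astrocyte had 8.12 CPM. Insig2 was at 10 CPM or more in most cells of both kinds, 12 of 14 astrocytes and 57 of 64 neurons, at medians of 52.2 and 156 CPM. The lowest of the 14 astrocytes had 491 CPM of Hmgcs1, above the median of the batch 3 neurons of 469.6 CPM.

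**Figure D2:**
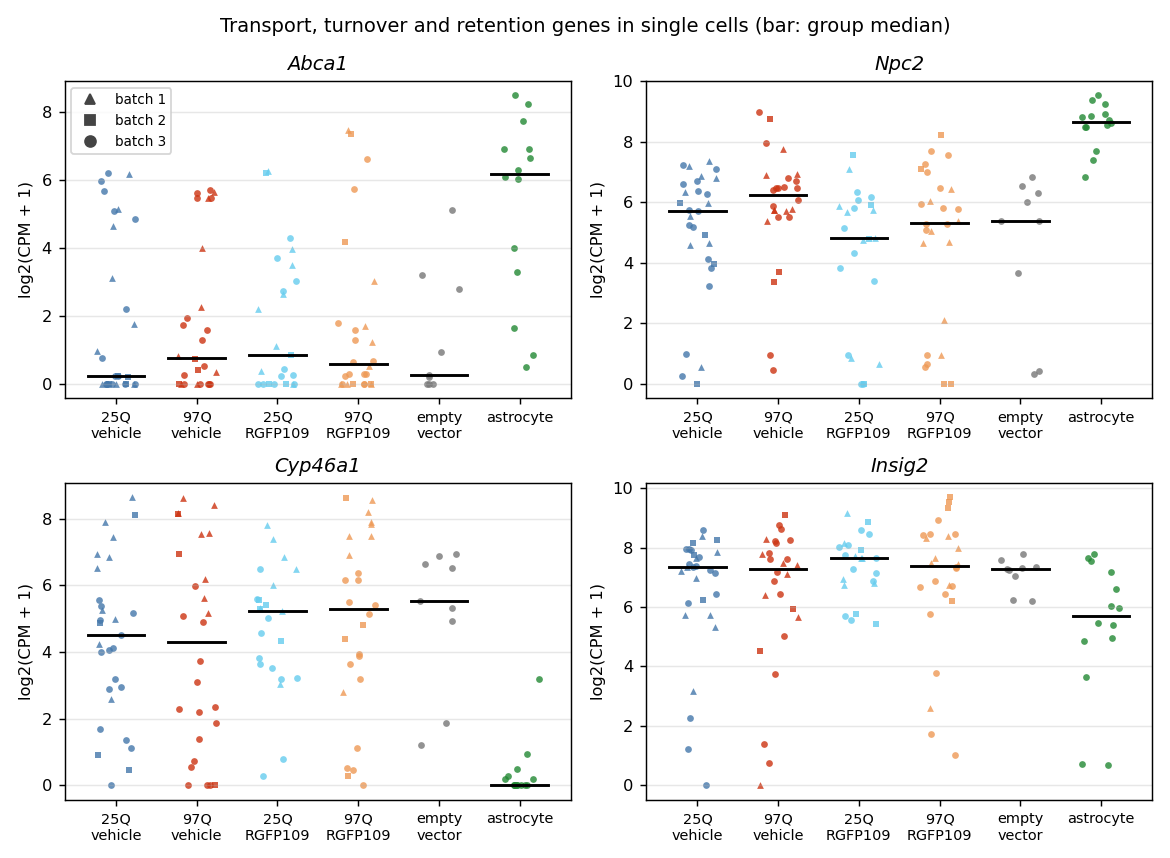
Log2(CPM + 1) of Abca1, Npc2, Cyp46a1 and Insig2 in each cell, by group (x axis); each point is 1 cell, its shape gives the batch and the bar is the group median. Astrocytes sit high for Abca1 and Npc2, at or near 0 for Cyp46a1, and lower but overlapping with neurons for Insig2.

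Astrocyte markers were also present in neurons, which grew on astrocytes. Without the neurons rich in astrocyte markers, 16 of the 29 genes were higher in astrocytes and 2 lower. Of all genes, 23.1% were higher and 27.3% lower in that setting. Against the empty vector neurons alone, which carry no huntingtin fragment, 17 were higher and 2 lower, where 25.9% and 36.4% of all genes were. Of the 15 higher genes, 11 kept the call under all 7 alternatives that keep the 2-fold rule. Those that did not were Mvd and Insig1 against empty vector neurons, Lss without the highest cell of each group, and Stard4 in thinned cells. At a 4-fold rule, Abca1, Srebf1 and Npc2 remained higher and Cyp46a1 lower, where 15.4% and 16.2% of all genes were. The share of the 29 genes that was higher was thus below that of all genes at this rule.

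The first comparison between constructs, 97Q against 25Q with vehicle, asks for the effect of the longer tract. None of the 29 genes passed the test, the quasi-likelihood test of edgeR with p-values adjusted over all genes by Benjamini-Hochberg, nor did any of the 15091 genes tested (0%). At an unadjusted p under 0.05 stood 3 of the 29 genes, Srebf2, Sqle and Mvk, against 3.96% (597) of all genes tested. DESeq2 called 213 genes in this contrast and none of the 29. Of the 29 genes, 21 had a fitted log2 fold change (log2FC) above 0, where 52.4% of all genes did. The median of the 29 was 0.44, against 0.06 for all genes, and 14 were higher in 97Q in all 3 batches, where 15.8% of all genes tested were. By batch, on the log2(CPM + 1) scale, the median of the 29 was 0.67, 0.42 and 0.80. For the 18 enzymes it was 0.69, -0.01 and 0.83, so batch 2 did not share the shift of the enzymes.

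Srebf2 stood at 68.95, 67.5 and 54.4 CPM in 25Q vehicle neurons of batches 1, 2 and 3, and at 199.9, 153 and 152 CPM in 97Q vehicle neurons. The groups did not overlap. Its log2FC was 1.31 (SE 0.526), with an unadjusted p of 0.0335 and a Benjamini-Hochberg adjusted p of 0.969 by edgeR. Sqle stood at 361, 191.5 and 97.5 CPM in 25Q and at 640.2, 553 and 423 CPM in 97Q, again without overlap. Its log2FC was 1.34 (SE 0.577, unadjusted p = 0.0447, adjusted p = 0.969 by edgeR). Mvk (ENSMUSG00000041939, chromosome 5, 114444269 to 114460591, plus strand), the kinase that acts on mevalonate, stood at 36.1, 0.486 and 12.8 CPM in 25Q and at 106, 212 and 62.7 CPM in 97Q. Its log2FC was 3.17 (SE 1.19, unadjusted p = 0.0254, adjusted p = 0.969 by edgeR), and 1.87 without batch 2, whose 25Q sum of 4 cells was the lowest. Hmgcs1 stood at 601, 567 and 397 CPM in 25Q and at 1157, 1397 and 825 CPM in 97Q, with a log2FC of 1.06 and no overlap. In single neurons, Hmgcs1 had a median of 359 CPM (range 9.66 to 1683) with 25Q and of 1021 CPM (4.63 to 2904) with 97Q. Cyp46a1 stood at 128, 109 and 16.5 CPM in 25Q and at 204, 146.8 and 13.1 CPM in 97Q, so that it differed more between batches than between constructs. Ebp was the 1 gene of the 29 that was lower in 97Q in all 3 batches, where 13.2% of all genes were, by 0.95, 1.85 and 0.46 on the log2(CPM + 1) scale; it is singled out here after its values were seen.

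**Figure D3:**
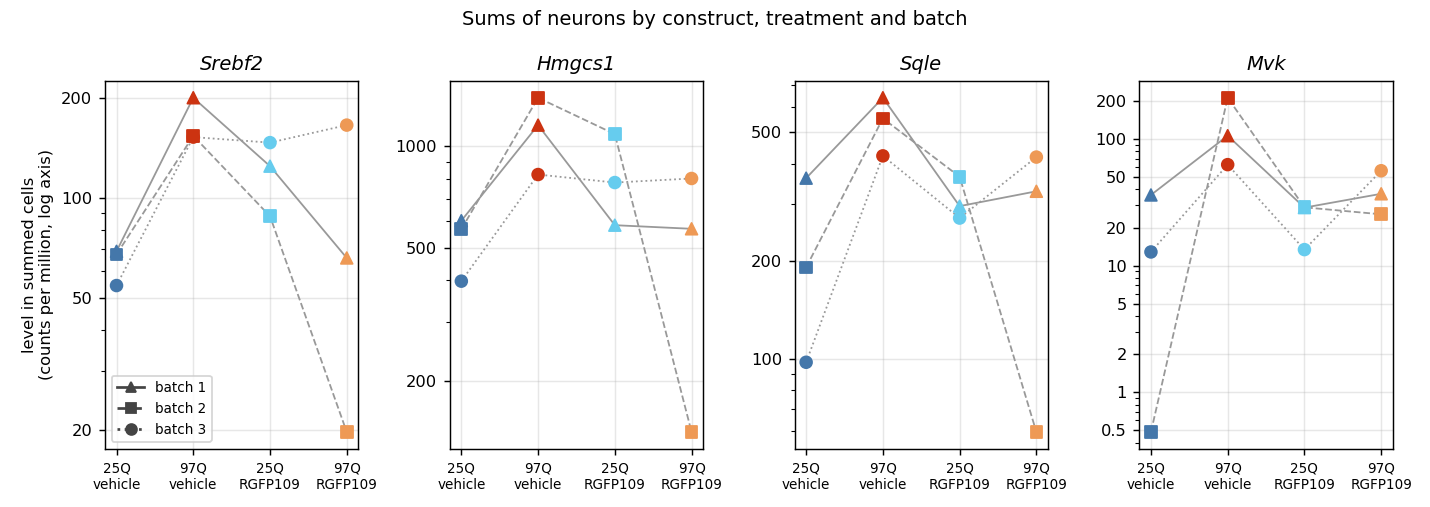
Level of Srebf2, Hmgcs1, Sqle and Mvk (CPM, log axes that differ between panels) in the 4 groups of neurons; each point is the sum of the cells of 1 group in 1 batch and a line joins the sums of a batch. Under vehicle the 97Q points lie above the 25Q points in every batch, and batch 2 of 97Q RGFP109 is the lowest point for Srebf2, Hmgcs1 and Sqle.

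Marker levels also differed between these groups. The summed GABAergic markers had a median of 3170 CPM per neuron in 25Q vehicle and 1429 CPM in 97Q vehicle, and the astrocyte markers 425 and 354 CPM, with sums per batch of 202 to 919.5 CPM in 25Q and 438 to 518 CPM in 97Q. The GABAergic sums of batches 1, 2 and 3 were 2342, 2978 and 5174 CPM in 25Q and 1006, 889 and 1808 CPM in 97Q. Markers of striatal projection neurons, 11 to 13 of 13 with a count, stood at 2106, 3329 and 846 CPM in 25Q and at 617, 850 and 366 CPM in 97Q, lower in each batch. Those of endothelial and mural cells, 3 to 9 of 10 with a count, stood at 152, 151 and 84.3 CPM in 25Q and at 1629, 221 and 149 CPM in 97Q, higher in each batch. The part of these markers in the cholesterol values was not tested. Without the neurons rich in astrocyte markers, the log2FC was 1.45 for Srebf2, 1.45 for Sqle and 3.56 for Mvk, and the median of the 29 genes was 0.68.

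RGFP109 in 97Q neurons asks whether the inhibitor changed the levels of 97Q cells. None of the 29 genes, and none of the 15091 tested (0%), passed edgeR's adjusted test, and DESeq2 called 110 genes and none of the 29. The median log2FC of the 29 was -0.51, against -0.04 for all genes, with 21 of 29 below 0, but by batch the median was -0.64, -1.57 and 0.18, so batch 3 did not share the direction, and without batch 2 it was -0.18. Of the 29, 9 were lower in all 3 batches and 2 higher, where 14.1% and 9.64% of all genes were. At an unadjusted p under 0.05 stood Npc1 alone, where 2.48% of all genes did. Npc1 (ENSMUSG00000024413, chromosome 18, 12189692 to 12236400, minus strand) stood at 16.1, 13.9 and 13.9 CPM in 97Q vehicle and at 52.9, 109 and 26.8 CPM in 97Q RGFP109, without overlap. Its log2FC was 2.48 (SE 1.04, unadjusted p = 0.0403, adjusted p = 0.999 by edgeR), and 1.32 both without batch 2 and without the neurons rich in astrocyte markers. Srebf2 stood at 65.8, 19.7 and 165 CPM, Hmgcs1 at 569, 141 and 803 CPM, Sqle at 329, 59.4 and 419.8 CPM and Cyp46a1 at 232, 83.9 and 29.8 CPM in 97Q RGFP109 neurons of batches 1, 2 and 3. Astrocyte markers summed to 438 to 518 CPM over the 3 batches of 97Q vehicle. Over those of 97Q RGFP109 they summed to 565 to 863 CPM, without overlap. Pan-neuronal markers stood at 8557, 10348 and 11112 CPM by batch with vehicle and at 6815, 5309 and 12112 CPM with RGFP109. Endothelial and mural markers fell in each batch, from 1629, 221 and 149 CPM to 203, 78.3 and 81.2 CPM. Oligodendrocyte markers of batch 2 stood at 392 and 46.2 CPM. The part of these markers in the cholesterol values was not tested. For Srebf2, Hmgcs1 and Sqle, batch 2, with 4 cells, lay far below its 97Q vehicle sum, and batch 3 lay within 10% of it.

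RGFP109 in 25Q neurons, the drug against the unexpanded construct, gave 23 of 29 genes with a log2FC above 0 and a median of 0.48, against 0.00 for all genes. None passed edgeR's adjusted test, of the 29 or of all genes (0%), and DESeq2 called 143 genes but none of the 29. The medians by batch were -0.30, 0.79 and 0.25, and the median was 0.12 without batch 2. Dhcr7 (ENSMUSG00000058454, chromosome 7, 143823145 to 143848410, plus strand) was the only 1 of the 29 with an unadjusted p under 0.05, where 2.52% of all genes stood. It had 65.6, 105 and 64.8 CPM with vehicle and 130.4, 143 and 183 CPM with RGFP109, without overlap. Its log2FC was 0.99 (SE 0.324, unadjusted p = 0.0123, adjusted p = 1 by edgeR). Srebf2 stood at 124, 87.9 and 146 CPM, Hmgcs1 at 583, 1088 and 781 CPM, Sqle at 296, 365 and 272 CPM and Cyp46a1 at 103, 36.4 and 19.4 CPM in 25Q RGFP109 neurons. Of these, Srebf2 was above its vehicle sum in all 3 batches. In 25Q, striatal projection markers stood at 2106, 3329 and 846 CPM by batch with vehicle and at 1121, 367 and 1047 CPM with RGFP109. Astrocyte markers stood at 728, 202 and 920 CPM and at 483, 959 and 1174 CPM. Pan-neuronal markers rose in each batch, from 7495, 6348 and 11660 CPM to 9222, 10005 and 12445 CPM. The part of these markers in the cholesterol values was not tested.

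The 2 remaining contrasts compare the constructs under the drug and the treated 97Q neurons with untreated 25Q neurons. In neither did any of the 29, or of all genes (0%), pass edgeR's adjusted test, and DESeq2 called 277 and 188 genes with none of the 29 among them. Under RGFP109, 12 of 29 genes had a higher and 17 a lower log2FC in 97Q than in 25Q, with a median of -0.36 against 0.00 for all genes, and of -0.06 without batch 2. Pmvk was the only 1 with an unadjusted p under 0.05, where 3.74% of all genes stood. It had 78.8, 209 and 164 CPM in 25Q RGFP109 and 27.9, 45.8 and 134.6 CPM in 97Q RGFP109, lower in each batch although the groups overlapped. Its log2FC was -1.20 (SE 0.402, unadjusted p = 0.0145, adjusted p = 0.999 by edgeR). For 97Q RGFP109 against 25Q vehicle, none of the 29 had an unadjusted p under 0.05, where 3.33% of all genes did. The smallest belonged to Ebp, with a log2FC of -1.50 (unadjusted p = 0.0543), and to Insig2, with 0.85 (unadjusted p = 0.0592), both with an adjusted p of 1.00 by edgeR. Ebp had 85.3, 142 and 79.5 CPM in 25Q vehicle and 41.6, 8.89 and 58.7 CPM in 97Q RGFP109, without overlap, and Insig2 had 139.7, 232 and 151 CPM against 227, 501 and 179 CPM, with overlap. The median of the 29 genes was 0.43 here and -0.53 without batch 3. Marker levels differed in these contrasts too. GABAergic markers stood at 3758, 3398 and 4985 CPM by batch in 25Q RGFP109. In 97Q RGFP109 they stood at 1227, 710 and 2066 CPM, in each batch below both 25Q groups. Under RGFP109, pan-neuronal markers were also lower in 97Q in each batch, while astrocyte markers went both ways. The part of these markers in the cholesterol values was not tested. These contrasts share groups of neurons with those before, so their values are not independent of one another.

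The interaction asks whether the drug acted differently on the 2 constructs. Its estimate is the drug effect in 97Q minus that in 25Q. None of the 29 genes or of all genes (0%) passed edgeR's adjusted test, and DESeq2 called 70 genes but none of the 29. At an unadjusted p under 0.05 stood Srebf2, Hmgcs1 and Dhcr7, 3 of the 29, where 2.60% of all genes did. Srebf2 had an estimate of -2.01 (SE 0.742, unadjusted p = 0.0234), Hmgcs1 -1.76 (SE 0.707, unadjusted p = 0.0331) and Dhcr7 -1.06 (SE 0.453, unadjusted p = 0.0431), each with an adjusted p of 0.998 by edgeR. By batch, on the log2(CPM + 1) scale, Srebf2 had -2.43, -3.28 and -1.29, Hmgcs1 -0.98, -4.24 and -1.01, and Dhcr7 -1.43, -0.73 and -1.30. All 3 were below 0 in every batch, as were 11 of the 29 genes in all (13.8% of all genes tested), and 3 of the 29 were above 0 in every batch (12.1% of all genes). The median of the 29 was -0.91, against -0.04 for all genes, with -0.24, -2.26 and -0.14 by batch, and it was -0.35 without batch 2, whose median was the largest in size. The groups differed in marker levels, as given above, and the part of the markers in these estimates was not tested.

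**Figure D4:**
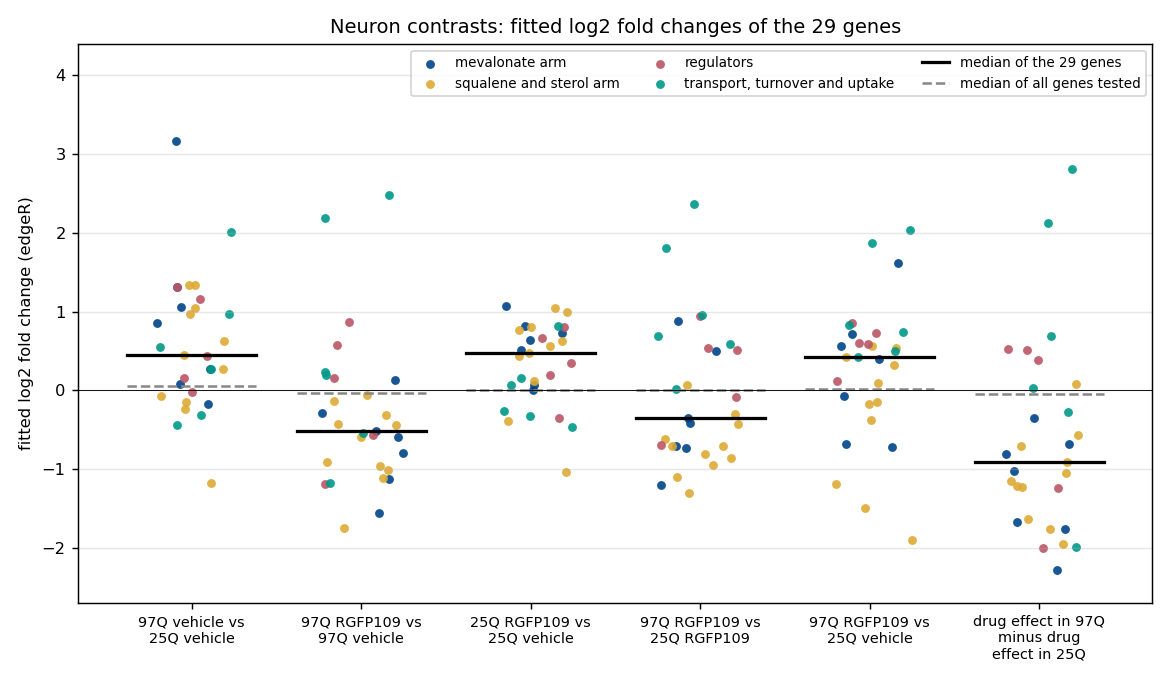
Fitted log2 fold change (y axis) of each of the 29 genes in the 6 contrasts of neurons (x axis), coloured by role. Black bars are the medians of the 29 genes and dashed grey bars the medians of the 15091 genes tested; no gene passed edgeR's adjusted test in any contrast.

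Across single neurons, the other enzymes followed Hmgcs1 more closely than the transport genes did. Spearman's rho of each gene with Hmgcs1 was taken across the cells of a batch. It serves as a description, since these cells share a batch, are not replicates, and differ in depth and group. In batch 1 (34 neurons), 15 of the 17 other enzymes lay above the 99th percentile of rho over 11930 genes, which was 0.44, with a median of 0.65 against 0.02 for all genes. In batch 3 (64 neurons), 11 of 17 lay above the 99th percentile of 0.34 over 11195 genes, with a median of 0.45, and in batch 2 (15 neurons) 6 of 17. Sqle had 0.82 in batch 1 and 0.71 in batch 3, Fdft1 0.81 and 0.71, Msmo1 0.75 and 0.72, and Cyp51 0.61 and 0.75. Of the regulators, Srebf2 had 0.67 and 0.63 and Insig1 0.69 and 0.36, whereas Srebf1, Scap and Insig2 lay between -0.26 and 0.25 in both batches. None of the 6 transport, turnover and uptake genes was above the 99th percentile in batch 1, and 1, Stard4, was in batch 3.

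Of the 15 genes most like Hmgcs1, 8 were among the 29 in batch 1 and 8 in batch 3, but 2 in batch 2 (Cyp51 and Acat2) and 0 in the astrocytes. Inside groups of batch 3 the number was 1 in 25Q vehicle (Cyp51), 1 in 97Q vehicle (Fdft1) and 4 in 97Q RGFP109 (Cyp51, Sqle, Msmo1 and Nsdhl). In batch 1, after the antisense gene Gm48342 (rho 0.99), which overlaps Hmgcs1 exons, the leading genes included Sqle, Fdft1 and the Fdft1 copy Gm6781. In batch 3 the order after Gm48342 was Cyp51, Msmo1, Gm6781, Fdft1 and Sqle. Within single groups of batch 3, 2 of the 17 enzymes were above the 99th percentile in 25Q vehicle (15 cells), 1 in 97Q vehicle (15 cells) and 7 in 97Q RGFP109 (14 cells). Their medians there were 0.30, 0.39 and 0.55. In the 14 astrocytes, 3 of the 17 were above it, the median was 0.27 against -0.10 for all genes, and Sqle had 0.02.

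**Figure D5:**
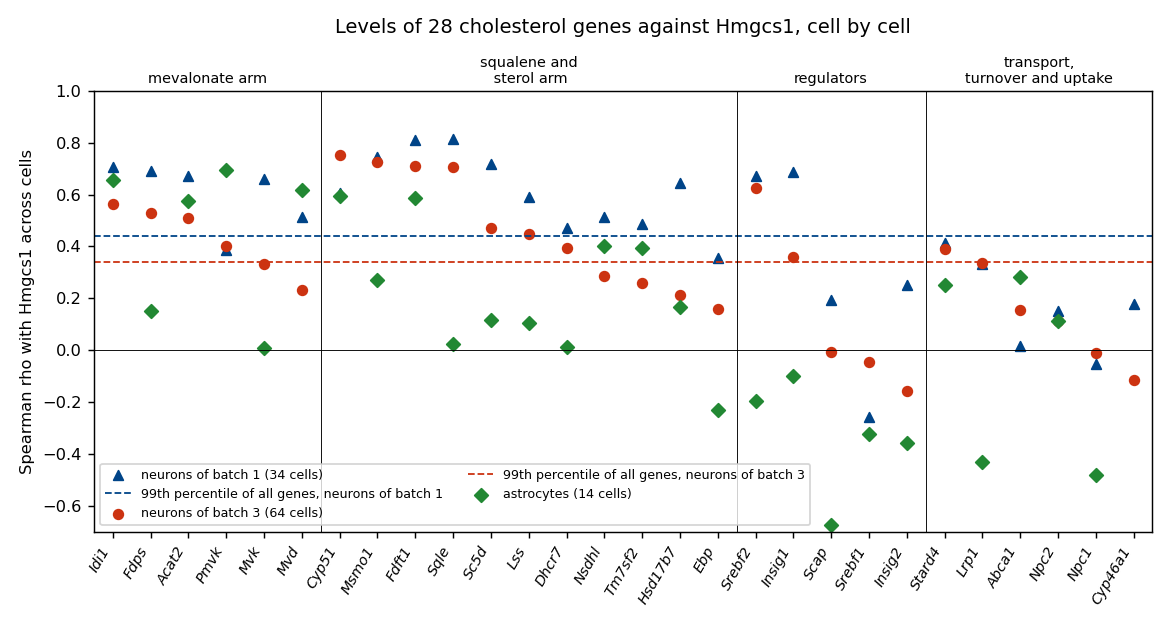
Spearman's rho (y axis) between Hmgcs1 and each of the other 28 genes (x axis, grouped by role) across the neurons of batch 1 (triangles), the neurons of batch 3 (circles) and the astrocytes (diamonds). Dashed lines mark the 99th percentile over all genes, 0.44 in batch 1 and 0.34 in batch 3, and most enzymes lie above their line while the transport genes lie below or near it.

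A further 36 genes of cholesterol handling, listed beside the 29, give the surroundings. In batch 3, 30 of them had at least 10 CPM in either cell type, of which 9 were higher in astrocytes and 9 lower by the same rule, where 22.8% and 28.7% of all genes were. Under TMM scaling 13 were higher and 5 lower, and 14 and 4 with DESeq2 size factors, so the even split holds without such scaling. Those of highest level included Clu, Acat1 and Mbtps1. Clu, an apolipoprotein, had 7475 CPM in astrocytes and 149 to 673 CPM in the neuron sums. The mitochondrial thiolase Acat1 had 226 CPM in astrocytes and 409.7 to 449 in neurons, and the SREBP protease Mbtps1 266 CPM and 84.0 to 175. None of the 28 that could be tested passed edgeR's adjusted test in any of the 6 contrasts. DESeq2 called Lipa, the lysosomal acid lipase, higher in 97Q RGFP109 than in 97Q vehicle, 25Q RGFP109 and 25Q vehicle, and Lbr, a sterol reductase of the nuclear envelope, higher than in 25Q vehicle. In 97Q against 25Q under vehicle 12 had a log2FC above 0 and 16 below, with a median of -0.24.

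The empty vector serves as the control for infection. Between its neurons and the 25Q vehicle neurons of batch 3, with 1 sum each and no test, 6 of the 29 genes were at least 2-fold higher with the empty vector and 5 at least 2-fold lower, where 18.7% and 14.6% of 10500 genes were. The 29 genes were thus close to the background here. Insig1 had 17.2 CPM with the empty vector and 3.46 CPM with 25Q, Cyp46a1 58.3 and 16.5 CPM, and Mvk 42.7 and 12.8 CPM. Lower with the empty vector were Stard4, with 0.0701 and 12.1 CPM, Abca1, with 4.33 and 16.8 CPM, and Ebp, with 22.6 and 79.5 CPM. Srebf2 had 88.2 and 54.4 CPM, Hmgcs1 374 and 397 CPM and Sqle 184 and 97.5 CPM.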

How the data were processed

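RNA of 113 neurons and 14 astrocytes was analysed from 1 table that holds raw read counts per Ensembl gene with no normalization, as deposited by the authors. The submitters' processing notes list STAR 2.5, HTSeq 0.9.1, Trimmomatic 0.36 and FastQC, with GRCm38 and mm10 as builds. No source used here gives the annotation release or whether counting used strand. The labels name no molecular identifiers, and PCR reads without them are not independent molecules, so the Poisson interval covers counting error only. Positions are from GENCODE M21 (GRCm38).

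Of the 53465 genes, 53274 were matched to a symbol. Cells were summed by group and batch, giving 12 sums of neurons for the fit. Genes were kept if filterByExpr passed them and at least 20% of the cells in the fit had a count (15091 genes, all 29 members among them). edgeR 4.0.16 (R 4.3.3) fitted group and batch with TMM scaling by the quasi-likelihood method, leaving 6 residual degrees of freedom at a common biological coefficient of variation of 0.928, and p-values were adjusted by Benjamini-Hochberg over all genes, two-sided, with a threshold of 0.05. SE was obtained by dividing the absolute log2FC by the root of the F statistic. Values by batch are differences of log2(CPM + 1) and are not from the fit. As no animal or culture is labelled and the fit has a batch term, p-values measure only how group differences vary from batch to batch. That variation may be technical.

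The batch numbers pair the sums, as the labels name them batches. The deviations of sums of a shared batch from their group means correlated at 0.155 to 0.229 (batch 1), 0.062 to 0.133 (batch 2) and 0.252 to 0.325 (batch 3). Between batches they correlated at -0.722 to 0.095. Taking deviations from the mean of each group's own 3 batches in itself lowers the values between batches, so this difference does not show the pairing. No pair of cells had identical counts. On simulated counts for 97Q against 25Q under vehicle (15091 genes), 16 of 100 genes changed by a log2FC of 3 and 43 of 100 changed by 5 were called, and 0 of 14891 unchanged genes. The simulated means held no difference between batches, so the setting is not quite that of the data.

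The members, the lists and the tests were chosen with earlier results of these data known. Genes given in full were those past the size rule between cell types, up to 5 in each direction, those with an unadjusted p under 0.05 in a contrast (if none, the 2 smallest), and Srebf2, Hmgcs1, Sqle and Cyp46a1. Alternatives were DESeq2 1.42.0, limma-voom 3.58.1, library totals only, no filter, no batch term, leaving out each batch, thinned cells, and neurons without those rich in astrocyte markers; for astrocytes also other scalings, the median over cells, the empty vector only, each group without its highest cell and a 4-fold rule. Adding near-identical copies was chosen after the data were seen. The values of 1 gene of the pathway list are not reported here.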

Additional observations from a re-analysis of the deposited data

Results flagged for a closer look

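Among the 9 empty vector neurons, 6 of the 29 genes had 1 cell apart from the other 8, by the gap to its nearest neighbour over the whole range on the log2(CPM + 1) scale against a critical value of 0.493. For normally distributed values, chance flags about 1 in 20 such groups. Values of single cells with counts at or near 0 are not so distributed, so the number of flags cannot be set against that rate. The rule was run on the 29 genes only, so no share over all genes can be given beside the 6. Whether 6 is more than usual for these cells is therefore not known. The lowest cell had 29.3 CPM of Pmvk (next lowest 77.2), 0.458 CPM of Fdft1 (31.1), 2.10 CPM of Sqle (65.3), 0.549 CPM of Msmo1 (52.8) and 0.366 CPM of Dhcr7 (28.4). For Msmo1 and Dhcr7 this was the same cell, and for the other genes 3 further cells. For Stard4 the highest cell had 0.84 CPM and the other 8 had 0.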

How the results depend on the processing

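The batch term is the replicate block of the neuron contrasts. Without the block, 0 genes were called in each of the 6 contrasts and the median log2FC of the 29 genes was 0.57, -0.60, 0.52, -0.37, 0.38 and -0.86, in the order of the report. DESeq2 called 213, 110, 143, 277, 188 and 70 genes. With no filter on low counts, 1 gene was called for RGFP109 in 97Q, 3 for the constructs under RGFP109 and 1 for 97Q RGFP109 against 25Q vehicle, and limma-voom called 3 for the constructs under RGFP109. None of these was among the 29. For 97Q against 25Q under vehicle, the median log2FC of the 29 was 0.70 by limma-voom, 0.63 in thinned cells, 0.68 without neurons rich in astrocyte markers and 0.32 to 0.64 with a batch left out; these moved by more than the spread between batches, except the values without batch 1 and without batch 3. Of 1740 values of single genes, 138 changed sign and none was called. Between cell types, 3 genes were higher and 1 lower at a 4-fold rule, where 15.4% and 16.2% of all genes were. Under TMM or DESeq2 scaling 1 was lower, where 22.4% and 21.6% of all genes were. The median log2 ratio was 1.63 from medians over cells. Of 236 values of single genes, 20 lost and 22 gained the call and none reversed. The cause of these shifts was not tested. With 3 batches and as few as 3 cells in a sum, most differences could be missed, even large ones. In the simulation 16 of 100 genes changed by a log2FC of 3 and 43 of 100 changed by 5 were called. A gene that missed the threshold is thus not shown to be alike between groups.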
